A study of Mus musculus with 20 samples.

Results

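Tfrc encodes transferrin receptor 1, the cell-surface receptor for iron-loaded transferrin, and it was measured by 6 probe sets among the 45101 on the Affymetrix Mouse Genome 430 2.0 array. The members were all probe sets that the platform annotation assigns to the symbol Tfrc (gene ID 22042). They comprised 3 ordinary probe sets, 1452661_at, 1422966_a_at and 1422967_a_at, and 3 array-control probe sets that Affymetrix placed in the 3′, middle and 5′ parts of the Tfrc transcript. All 6 read 1 gene, and the annotation gives 1422966_a_at and 1422967_a_at the same source sequence, so they are not independent replicates of a result. The probe sequences, and the Tfrc 3′ untranslated region that holds its regulatory elements, were not used here.

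The study recovered RNA bound to iron regulatory protein 2 (IRP2) from 5 mouse tissues and compared it with a reaction run without the protein. In each IRP2 reaction, 50 µg of total RNA from C57BL6/J mice was combined with recombinant IRP2, which was made in E. coli with a His tag at its N-terminus, and the complexes were pulled down with a monoclonal anti-His antibody. The control reactions left IRP2 out and were otherwise run in parallel, so the protein is added to extracted RNA and not taken from the tissue. From each reaction 120 ng of recovered RNA was amplified in a two-cycle protocol and hybridised, giving 20 arrays in 10 groups of 2, an IRP2 group and a control group for each tissue. Duodenum, liver and spleen RNA was pooled from 4 mice that had eaten an iron-poor diet (iron below 10 mg/kg) for the 21 days that followed weaning. Bone marrow and brain RNA was pooled from 6 mice on an iron-normal diet, aged 8 to 10 weeks. From 1 set of tissues to the other, neither diet nor age can be told apart from the tissue. The sources used here do not say whether the replicates of a group came from separate pools of mice, so the p-values measure the spread between these arrays, which may be technical.

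Transferrin receptor 1 carries diferric transferrin into the cell through clathrin-coated pits, and the iron is released in the endosome. Its mRNA is the textbook case of control of mRNA stability by iron: several iron-responsive elements (IREs), short stem-loops, lie in its 3′ untranslated region, and IRP1 or IRP2 bound to them protects the mRNA from cleavage when iron is scarce. Erythroid precursors, which make haemoglobin, and dividing cells are known for high levels of the receptor.

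Each tissue's marker list, of 6 to 8 genes, averaged highest on the 4 arrays of its own tissue. Array medians lay between 5.65 and 5.71 on the log2 scale for duodenum, liver and brain replicate 1, and between 5.39 and 5.55 for spleen, bone marrow and brain replicate 2. Bone marrow control replicate 1 stood apart: its mean rank correlation with the spleen arrays was 0.908, and that of the other bone marrow arrays was 0.824 to 0.825. Results that turn on bone marrow are therefore also given without that array or without the tissue.

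All 6 Tfrc probe sets were higher with IRP2 than without it in 10 of 10 same-numbered pairs of reactions. The share of all probe sets that were so was not counted, so this is a description. Of the 6, 5 passed the filter on dim probe sets (a value at or above the array's own median on at least 2 of the 20 arrays), and the 5′ array control did not. For 1422967_a_at and the middle array control, 0 of 10 control arrays reached the median, so these sets passed through the IRP2 arrays alone, where they are high, and had to differ. Their tests are given as values and enter no count of members called higher that is set against all probe sets. The other 3 reached the median on 10 (1452661_at), 9 (1422966_a_at) and 4 (the 3′ array control) of the control arrays. In limma's fit over 30165 probe sets, these 3 rose in the mean over tissues, where 0.378% of all tested probe sets were called higher at a Benjamini-Hochberg adjusted p under 0.05. The mean log2 ratio (IRP2 minus control) was 3.30 ± 0.19 (SE) for 1422966_a_at, which is a 9.87-fold difference and the largest of the 30165 tested probe sets. It was 2.31 ± 0.27 for 1422967_a_at, 2.15 ± 0.20 for the 3′ array control, 1.90 ± 0.12 for 1452661_at and 1.43 ± 0.22 for the middle array control. The limma adjusted p-values for these 5 means ran between 2.01e-07 and 0.00445. Without the bone marrow arrays the middle array control was no longer called (limma adjusted p = 0.0800), and the other 4 were.

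**Figure D1:**
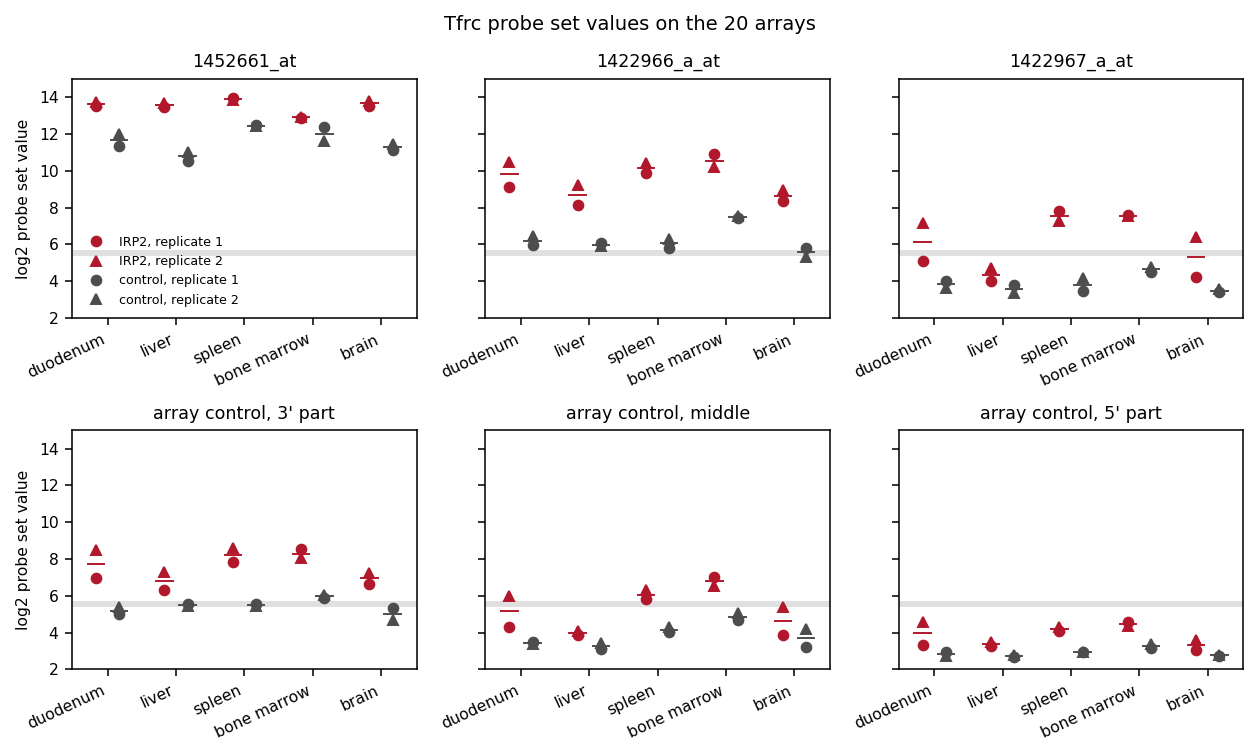
Log2 value of the 6 Tfrc probe sets (1 panel each) on all 20 arrays, by tissue. Red symbols are IRP2 reactions and grey symbols control reactions, circles are replicate 1 and triangles replicate 2, short bars are group means (n = 2), and the pale band marks the range of the array medians, 5.39 to 5.71; IRP2 lies above control in every pair, and the groups overlap only for the middle array control in brain.

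The probe set 1452661_at had the highest values of the 6. With IRP2 it read 13.54 and 13.72 in duodenum, 13.48 and 13.68 in liver, 13.99 and 13.84 in spleen, 12.87 and 12.94 in bone marrow, and 13.50 and 13.82 in brain on the log2 scale. In control reactions it read 11.35 and 12.01 in duodenum, 10.55 and 11.05 in liver, 12.48 and 12.42 in spleen, 12.36 and 11.60 in bone marrow, and 11.16 and 11.44 in brain. The groups did not overlap in any tissue, and the IRP2 values of the different tissues lay closer together than their control values (SD over 10 arrays 0.37 in IRP2 and 0.66 in control). On the IRP2 arrays it ranked between 8 and 37 from the top of the 45101 probe sets, 0.79 to 1.83 log2 units below the brightest probe set of the array, and on the control arrays it ranked between 111 and 1624. Whether the scanner or the normalization limits values so near the top was not tested.

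Its log2 ratio was 2.78 in liver (limma adjusted p = 0.0012), 2.36 in brain (limma adjusted p = 0.00207) and 1.95 in duodenum (limma adjusted p = 0.0111), each ± 0.28 (SE). In liver this was the largest ratio of all tested probe sets. In spleen it was 1.46, with limma adjusted p = 0.0904, and 0.00441 with the replicate number as a block. In bone marrow it was 0.92 and not called, with limma adjusted p = 0.689, and 0.0528 with the block. The bone marrow pairs differed, 0.51 in replicate 1, which holds the control array that stands apart, and 1.34 in replicate 2. Without that control array, which leaves control replicate 2 alone, the ratio was 1.30. With the block it was then 1.34, which is the value of the replicate 2 pair alone.

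The probe set 1422966_a_at showed the largest ratios. With IRP2 it read 9.14 and 10.51 in duodenum, 8.14 and 9.22 in liver, 9.90 and 10.42 in spleen, 10.91 and 10.21 in bone marrow, and 8.35 and 8.94 in brain. In control reactions it read 5.99 and 6.44 in duodenum, 6.08 and 5.90 in liver, 5.82 and 6.31 in spleen, 7.45 and 7.57 in bone marrow, and 5.80 and 5.33 in brain. The groups were separate in every tissue, and the lowest IRP2 value of any tissue lay above the highest control value of any tissue. By its mean, bone marrow was the highest tissue in both reactions.

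It was called in each of the 5 tissues. The log2 ratio was 4.09 in spleen (17-fold, limma adjusted p = 0.000608), 3.61 in duodenum (12.2-fold, limma adjusted p = 0.00209), 3.08 in brain (8.45-fold, limma adjusted p = 0.00879), 3.05 in bone marrow (8.31-fold, limma adjusted p = 0.0496) and 2.68 in liver (6.43-fold, limma adjusted p = 0.0434), each ± 0.43 (SE). Among all tested probe sets this ratio had rank 1 in duodenum, spleen and bone marrow, rank 2 in liver behind 1452661_at, and rank 4 in brain. The bone marrow call was lost without any of IRP2 replicate 1 (limma adjusted p = 0.362), control replicate 1 (0.346) or IRP2 replicate 2 (0.0909), and it held without control replicate 2.

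The probe set 1422967_a_at, from the same source sequence, was dimmer and more variable. With IRP2 it read 5.10 and 7.18 in duodenum, 3.99 and 4.73 in liver, 7.82 and 7.26 in spleen, 7.60 and 7.53 in bone marrow, and 4.24 and 6.38 in brain. In control reactions it read 4.0 and 3.66 in duodenum, 3.77 and 3.37 in liver, 3.47 and 4.17 in spleen, 4.53 and 4.78 in bone marrow, and 3.42 and 3.56 in brain. All control values lay below the array medians, and the groups did not overlap in any tissue, although in liver the lower IRP2 value stood only slightly above the higher control. The ratio was called in spleen alone, at 3.72 ± 0.61 (SE, limma adjusted p = 0.0336). In bone marrow it was 2.91 (limma adjusted p = 0.498, and 0.0390 with the replicate block). In duodenum it was 2.31 (limma adjusted p = 0.704), in brain 1.82 and in liver 0.79. With the block and without bone marrow control replicate 1, only the replicate 2 pair of bone marrow remains, at 2.75.

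Of the array controls, the 3′ set had the highest values. With IRP2 it read 6.96 and 8.47 in duodenum, 6.31 and 7.32 in liver, 7.86 and 8.61 in spleen, 8.54 and 8.04 in bone marrow, and 6.65 and 7.24 in brain. In control reactions it read 5.01 and 5.37 in duodenum, 5.54 and 5.47 in liver, 5.58 and 5.47 in spleen, 5.91 and 6.07 in bone marrow, and 5.36 and 4.67 in brain. The groups were separate in all 5 tissues, with liver and brain lowest in mean among the IRP2 reactions. The log2 ratio was called in spleen, at 2.71 (limma adjusted p = 0.0326), and in duodenum, at 2.52 (limma adjusted p = 0.0462), each ± 0.44 (SE). It was 2.30 in bone marrow (limma adjusted p = 0.253, and 0.0271 with the replicate block), 1.93 in brain (limma adjusted p = 0.528) and 1.31 in liver. With the block and without bone marrow control replicate 1, only the replicate 2 pair of bone marrow remains, at 1.97.

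The middle array control was not called in any single tissue. Its log2 ratio was 1.91 in bone marrow, 1.90 in spleen, 1.72 in duodenum, 0.94 in brain and 0.70 in liver, each ± 0.50 (SE), and with the replicate block the bone marrow and spleen ratios were called (limma adjusted p = 0.0324 and 0.0256). Without bone marrow control replicate 1 the blocked bone marrow ratio was 1.46, which is the value of the replicate 2 pair alone. In brain its groups overlapped, with 3.90 and 5.41 in IRP2 reactions and 3.24 and 4.20 in control reactions. The 5′ array control read between 3.08 and 4.58 on the 10 IRP2 arrays, with a median of 3.85, and between 2.68 and 3.41 on the 10 control arrays, with a median of 2.87. Its groups were separate in each tissue, although the values lay low in the distribution of every array, at percentiles 6.72 to 31.5 on IRP2 arrays and 2.2 to 11.8 on control arrays. Its mean ratio was 0.96, and when the filter was left out it was called in the mean over tissues (limma adjusted p = 0.00216) and in no single tissue.

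**Figure D2:**
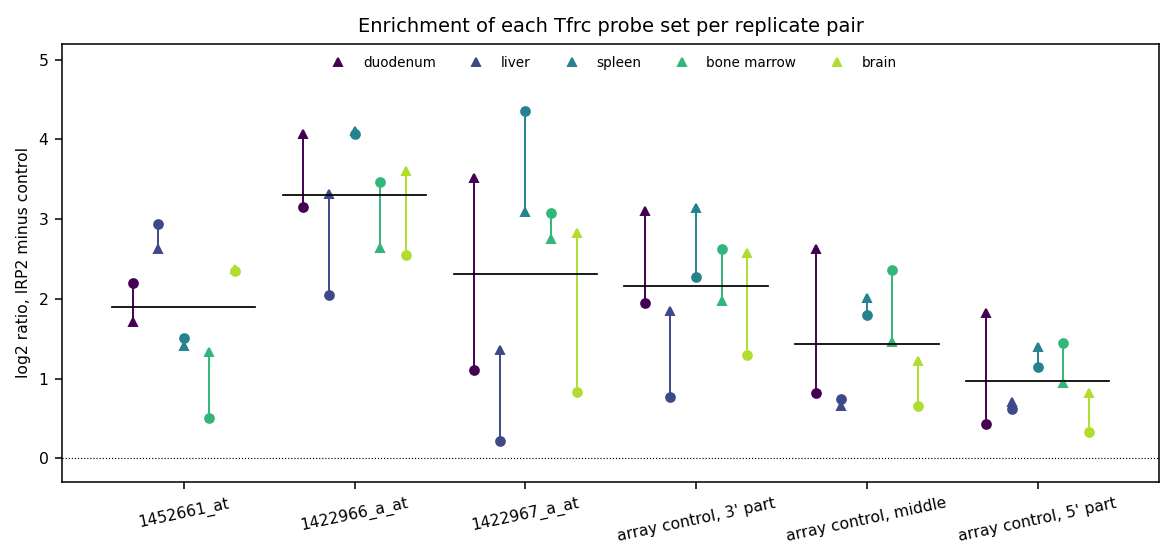
Log2 ratio, IRP2 minus control, of each Tfrc probe set for each replicate pair, coloured by tissue, with circles for replicate 1 and triangles for replicate 2; black bars are means over the 10 pairs and the dotted line is 0. All 60 ratios lie above 0, and the pairs of duodenum and brain lie far apart for the dimmer probe sets.

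Counted by tissue over the 3 sets that passed the filter on control arrays as well, 3 of 3 were called higher in duodenum, where 0.0762% of all tested probe sets were. In liver 2 of 3 were called, against 0.0332% of all. In spleen 2 of 3 were called, against 0.0796%, and 3 of 3 with the replicate block, against 0.298%. In bone marrow 1 of 3 was called, against 0.00995%, and 2 of 3 with the block, against 0.385%. In brain 2 of 3 were called, against 0.0597%. The 3 sets read 1 gene, so they are not independent results.

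Both IRP2 arrays lay above both controls in each of the 5 tissues for 3 of 3 Tfrc sets that passed the filter on control arrays as well. Among all tested probe sets that share was 15.6% in spleen, 14.5% in bone marrow, 14.4% in duodenum, 13.9% in liver and 4.21% in brain, and 0.232% showed it in all 5 tissues at once.

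With 2 arrays per group, single arrays decided many of the calls within a tissue. Leaving out duodenum control replicate 1 or IRP2 replicate 2 left none of the 3 duodenum calls. Without any 1 of the 4 liver arrays only 1452661_at was called in liver, and without any 1 of the 4 spleen arrays only 1422966_a_at was called in spleen. In brain only 1452661_at was called without control replicate 1, IRP2 replicate 2 or control replicate 2. Without bone marrow control replicate 2, more sets were called there than with all arrays. The calls in the mean over tissues held without any 1 of the 20 arrays, for the 3 sets that passed the filter on control arrays as well. The calls of 1422967_a_at and the middle array control in the mean held too. Those sets passed the filter through the IRP2 arrays alone and had to differ, so their calls do not show robustness. No share of all probe sets is set against these results.

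The ratios of the replicate pairs of a tissue differed in size, and not only for the dimmer probe sets. The pair of replicate 2 had the larger ratio for 6 of 6 Tfrc probe sets in brain, 5 of 6 in duodenum, 4 of 6 in liver, 4 of 6 in spleen and 1 of 6 in bone marrow. The widest gap was in duodenum, for 1422967_a_at, where the ratio was 3.52 in pair 2 and 1.11 in pair 1. In spleen the ratios of 1422966_a_at were 4.10 in pair 2 and 4.07 in pair 1, and those of 1422967_a_at were 3.09 in pair 2 and 4.35 in pair 1. Over the 6 Tfrc sets, the ratio of pair 2 minus that of pair 1 lay between -0.49 and 2.41 in duodenum, -0.30 and 1.26 in liver, -1.26 and 0.86 in spleen, -0.90 and 0.83 in bone marrow, and 0.04 and 1.99 in brain. The same difference was taken between the levels of the middle array control of Actb, the beta-actin transcript. Replicate 2 minus replicate 1 was 1.33 in IRP2 and 1.75 in control reactions of duodenum, 0.82 in IRP2 and 0.72 in control of liver, -0.01 in IRP2 and 0.06 in control of spleen, -0.17 in IRP2 and -1.49 in control of bone marrow, and 2.05 in IRP2 and 2.04 in control of brain. What part RNA integrity or amplification had in the pair differences was not tested.

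The tissue order of the ratio depended on the probe set. For 1452661_at the order was liver, brain, duodenum, spleen and bone marrow. For 1422966_a_at it was spleen, duodenum, brain, bone marrow and liver, and for 1422967_a_at and the 3′ array control spleen was first and liver last. No Tfrc probe set passed limma's moderated F test that the 5 tissue ratios are equal, which 0.00332% of all tested probe sets passed. At an unadjusted limma p under 0.05, which 0.603% of all tested probe sets passed, 1452661_at passed (0.00215). For 1422967_a_at the unadjusted limma p was 0.0388. That set passed the filter through the IRP2 arrays alone, so its value is not set against the share of all. With the replicate block 0.0398% of all passed and no Tfrc set did, 1452661_at coming nearest (limma adjusted p = 0.173).

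**Figure D3:**
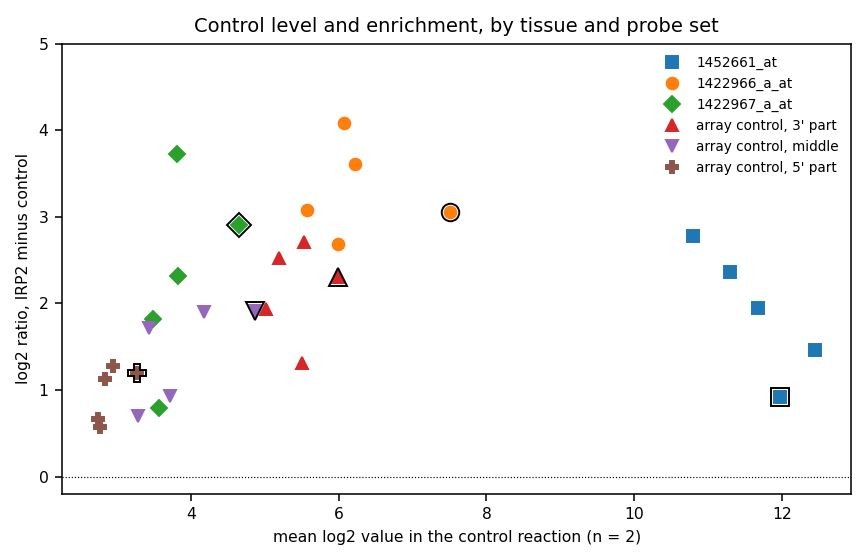
Log2 ratio, IRP2 minus control (vertical axis), against the mean log2 value in the control reaction (horizontal axis, n = 2) for each Tfrc probe set in each tissue; black outlines mark bone marrow. For 1452661_at the 2 tissues with the highest control values, spleen at 12.45 and bone marrow at 11.98, have the smallest ratios, 1.46 and 0.92, and liver with the lowest control value, 10.80, has the largest, 2.78; the control value is part of the ratio, so the axes are not independent.

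Since all probe sets of a pair are read on the same arrays, a shift of all log2 values of an array by 1 amount cancels in the difference between their ratios. Of the 15 pairs of Tfrc probe sets, 10 differed in ratio by an exact paired permutation test over the 10 reaction pairs (all sign flips, two-sided, Benjamini-Hochberg over 15 pairs, smallest possible p 0.00195), and 11 did after quantile normalization over all arrays. The test takes the 2 reaction pairs of a tissue as independent, which is not known. No test with the 5 tissues as the unit was run. The ratio of 1422966_a_at exceeded that of the 3′ array control by 1.15 ± 0.33 (SD), in 10 of 10 pairs (exact adjusted p = 0.00586). It exceeded that of 1422967_a_at by 0.99 ± 0.86 (SD), in 8 of 10 pairs (exact adjusted p = 0.0130). The ratio of 1452661_at was smaller than that of 1422966_a_at, by -1.41 ± 1.24 (SD), in 9 of 10 pairs (exact adjusted p = 0.0130). That difference was -2.57 and -2.69 in spleen and -2.96 and -1.31 in bone marrow, and it was 0.88 and -0.68 in liver. The ratio of 1452661_at was not distinguished from that of the 3′ array control: the difference was -0.26 ± 1.34 (SD), between -2.12 and 2.16 (exact adjusted p = 0.590).

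The 3 array controls sample the Tfrc transcript along its length. Labelled RNA made in a two-cycle protocol starts at the poly(A) tail, so probe sets far from the 3′ end commonly read low. The 3′ value exceeded the 5′ value by 3.72 ± 0.32 in IRP2 reactions and by 2.53 ± 0.30 in control reactions (SD, n = 10 arrays each). The IRP2 gap was larger in 10 of 10 pairs, by 1.19 ± 0.46 (SD, exact permutation adjusted p = 0.00781 over 8 contrasts). It was larger by 1.52 and 1.28 in the duodenum pairs, 0.15 and 1.15 in liver, 1.13 and 1.74 in spleen, 1.19 and 1.03 in bone marrow, and 0.97 and 1.75 in brain. The smallest value came from liver pair 1, and every other pair was at 0.97 or more. Without the bone marrow pairs the mean was 1.21 (exact permutation adjusted p = 0.0208). The exact tests of the array controls, here and below, also take the 2 pairs of a tissue as independent.

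In the mean over the 10 pairs the gap split over both segments of the transcript. The 3′ minus middle difference was larger with IRP2 by 0.72 ± 0.45 (SD), in 10 of 10 pairs (exact permutation adjusted p = 0.00781), and the middle minus 5′ difference by 0.47 ± 0.30 (SD), in 9 of 10 pairs (exact permutation adjusted p = 0.0104). The middle minus 5′ change was 0.12 and -0.05 in the liver pairs, and 0.33 to 0.92 in the pairs of the other tissues. The control transcripts Actb, Gapdh (a glycolytic enzyme) and Pcx (pyruvate carboxylase) have array controls of the same kind. None was enriched in the mean over tissues at any part, with ratios between -0.06 and 0.07. They therefore cannot show whether the gap of an enriched transcript widens. Their 3′ minus 5′ difference, IRP2 minus control, was -0.05 ± 0.30 for Actb (exact permutation adjusted p = 0.772), -0.09 ± 0.21 for Gapdh (exact permutation adjusted p = 0.313) and -0.12 ± 0.19 for Pcx (exact permutation adjusted p = 0.148), each SD over 10 pairs. Without spleen replicate 1 the Pcx difference was -0.16 and passed the test (exact permutation adjusted p = 0.0469). The 3′ minus middle difference of Gapdh passed it without bone marrow replicate 2, at -0.06 (exact permutation adjusted p = 0.0469), and without all bone marrow arrays, at -0.07 (exact permutation adjusted p = 0.0208). Actb and Gapdh fell steeply towards the 5′ end in both reactions, with 3′ minus 5′ gaps of 4.19 in IRP2 and 4.24 in control for Actb and of 4.74 in IRP2 and 4.83 in control for Gapdh. The Tfrc 5′ set reads near the bottom of the array in both reactions. The middle set is also dim on control arrays, at percentiles 6.86 to 40.7. How much a floor at these levels adds to the Tfrc differences was not tested.

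**Figure D4:**
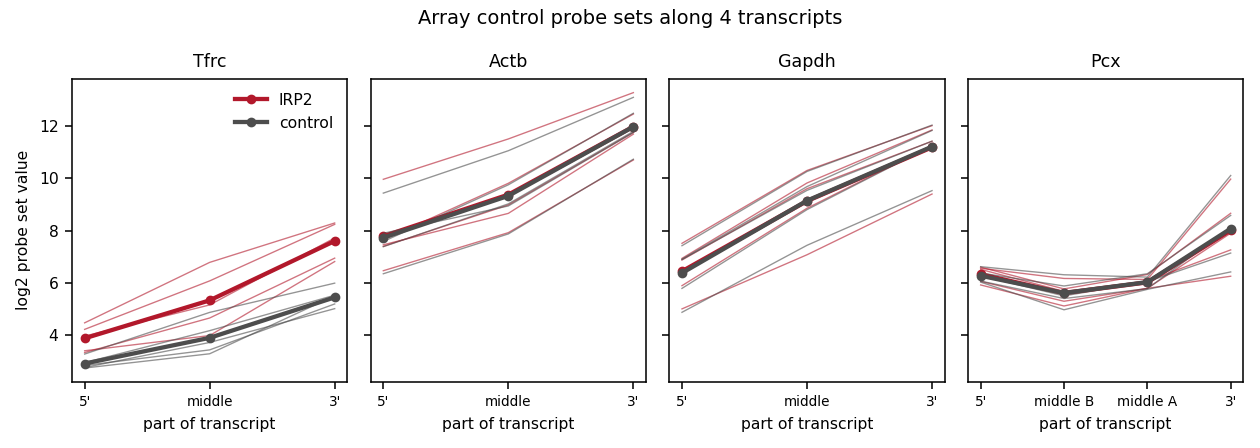
Log2 values of the array-control probe sets along the transcripts of Tfrc, Actb, Gapdh and Pcx, from the 5′ part to the 3′ part; thin lines are tissue means (n = 2), thick lines the mean over 5 tissues, red for IRP2 and grey for control. The Tfrc lines separate more towards the 3′ end, by 0.96 at the 5′ part, 1.43 in the middle and 2.15 at the 3′ part, while the means over tissues of the other transcripts differ by -0.06 to 0.07 between reactions, with single tissues between -0.44 and 0.53.

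The control reactions show how Tfrc RNA was recovered without IRP2. The total RNA that entered the reactions was not analysed here, so a control level is that of recovered RNA and not of the tissue. In such bulk RNA, fewer cells of a type and less RNA per cell cannot be told apart. For 1452661_at the control level was 12.45 ± 0.04 in spleen, 11.98 ± 0.53 in bone marrow, 11.68 ± 0.47 in duodenum, 11.30 ± 0.20 in brain and 10.80 ± 0.36 in liver (log2, SD, n = 2). Each tissue differed from its neighbour in that order by less than the test could call, with limma adjusted p-values of 0.199, 0.402, 0.281 and 0.156 going down the order. Spleen was above duodenum (limma adjusted p = 0.0288), brain (limma adjusted p = 0.00295) and liver (limma adjusted p = 0.000161), and bone marrow and duodenum were above liver (limma adjusted p = 0.00276 and 0.0375). Without bone marrow control replicate 1, bone marrow was still above liver, by 0.80 (the liver minus bone marrow difference was -0.80, limma adjusted p = 0.0411), but it was then below spleen (limma adjusted p = 0.0316) and 0.08 below duodenum. The order depended on the scaling: after quantile normalization over all arrays, bone marrow was first at 12.73 and spleen second at 12.11.

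The control level differed between tissues by limma's moderated F test for 1452661_at (adjusted p = 0.000672), 1422966_a_at (limma adjusted p = 0.00768) and the middle array control (adjusted p = 0.0496), while 82.4% of all tested probe sets differed. The control level of 1422966_a_at was 7.51 ± 0.08 in bone marrow, 6.22 ± 0.32 in duodenum, 6.07 ± 0.35 in spleen, 5.99 ± 0.13 in liver and 5.57 ± 0.33 in brain (log2, SD, n = 2). Bone marrow was above each of the other 4 (limma adjusted p between 0.00149 and 0.0243), and no other pair of tissues was told apart. Without bone marrow control replicate 1 it was above brain, liver and spleen (limma adjusted p between 0.00822 and 0.0412) and not called against duodenum (limma adjusted p = 0.0647), and the middle array control no longer differed between tissues (limma adjusted p = 0.109). Without the bone marrow arrays 1 set, 1452661_at, differed between tissues, and so it was without bone marrow control replicate 2.

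Markers of the cells known for high transferrin receptor levels were highest in bone marrow and spleen controls. These were also the tissues with the highest mean control levels of 1452661_at. For 1422966_a_at the spleen control level was 6.07, against 6.22 in duodenum and 5.99 in liver. The dividing-cell list was lowest in brain, while 1452661_at was lowest in liver, at 10.80 against 11.30 in brain (a difference not called). The erythroid list, 9 genes besides Tfrc, averaged 9.72 to 10.45 in bone marrow controls and 9.75 to 10.04 in spleen controls, and 4.53 to 5.07 in the controls of the other 3 tissues. Its 4 brightest members were Alas2 (erythroid haem synthesis), Ermap (an erythroid membrane protein), Klf1 and Gata1 (erythroid transcription factors). Gata1, for example, had control levels of 10.76 in bone marrow and 10.24 in spleen, and 5.2 to 5.41 elsewhere. In duodenum and liver 6 of the 9 genes, and in brain controls 7, lay below the array median. The list of 11 dividing-cell genes averaged 9.27 to 10.33 in bone marrow controls, 9.60 to 9.84 in spleen, 8.04 to 8.38 in duodenum, 6.28 in liver and 5.44 to 5.73 in brain. Its 4 brightest were Rrm2 (ribonucleotide reductase), Pcna and Mcm2 (DNA replication) and Mki67 (a proliferation marker). Their part in the Tfrc control levels was not tested.

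By Pearson's r over the 10 control arrays, the 5 genes whose control level was most like that of 1452661_at were Cpsf6 (0.980), a pre-mRNA 3′ processing factor, G2e3 (0.976), a ubiquitin ligase, Dnttip1 (0.974), a subunit of a histone deacetylase complex, Rab3gap2 (0.973), a regulator of Rab3 GTPase, and Uck2 (0.971), a uridine-cytidine kinase. The 10 arrays share 5 tissues, and these genes were the extreme of all tested genes, so the values are descriptions. None of the 5 had a mean log2 ratio called in limma, and their ratios lay between -0.27 and 0.20.

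By the root mean square difference of the 10 pair ratios, the gene most like 1422966_a_at was Cxcl16, a transmembrane chemokine, at 0.962 log2 units. Lrpap1, a chaperone of LDL-receptor family proteins, followed at 1.30, Nt5c, a nucleotidase, at 1.58, Egr2, a zinc-finger transcription factor, at 1.8, and Ralgapa1, a GTPase-activating protein subunit, at 1.82. Their mean log2 ratios were 2.52 for Cxcl16, 2.26 for Lrpap1, 1.95 for Nt5c, 1.69 for Egr2 and 1.56 for Ralgapa1, against 3.30 for 1422966_a_at. That set had the largest mean ratio of all, so a gene near it by this measure had to have large ratios too. These values are descriptions as well. The other tested Tfrc sets stood at 1.19 (the 3′ array control), 1.29 (1422967_a_at), 1.83 (1452661_at) and 1.95 (the middle array control). Averaged over the 2 pairs of a tissue, Cxcl16, Lrpap1, Nt5c, Egr2 and Ralgapa1 each had their largest ratio in spleen, as 1422966_a_at did. For Cxcl16 it was 3.37. These genes were chosen for likeness over the same pair ratios, so a shared tissue order is not a separate result.

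The other components of the transferrin pathway showed little of this. Of 28 genes listed for the transferrin cycle besides Tfrc (carriers, adaptors, clathrin, Rab proteins, reductases and metal transporters), 24 were tested, 1 was called higher in the mean over tissues and 0 lower, against 0.378% of all tested probe sets called higher and 0.00663% called lower. At an unadjusted p under 0.05 the counts in limma were 2 higher and 0 lower, against 1.94% of all higher and 0.938% lower. The second was Rab11a, a GTPase of the recycling endosome, at 0.34 ± 0.14 (SE), named here for that value. The median ratio of the 24 was -0.05, and that of all tested probe sets was -0.02. The called gene was Slc11a2, the divalent metal transporter DMT1 that moves iron out of the transferrin endosome, and some of its transcripts carry a 3′ IRE. Its brightest probe set had a mean log2 ratio of 1.45 ± 0.12 (SE, limma adjusted p = 9.54e-06). Its levels were 12.55 in IRP2 and 10.76 in control in duodenum, 9.36 in IRP2 and 7.24 in control in liver, 9.42 in IRP2 and 8.03 in control in spleen, 9.23 in IRP2 and 8.02 in control in bone marrow, and 8.05 in IRP2 and 7.31 in control in brain.

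The closest relatives and partners of the receptor were not called, and none passed an unadjusted limma p of 0.05. Of all tested probe sets 0.378% were called higher and 0.00663% lower. At the unadjusted p 1.94% were higher and 0.938% lower, so a count of 0 among so few genes is near the share of all. Tfr2, the second transferrin receptor, whose mRNA has no known IRE, had a mean log2 ratio of -0.11 ± 0.12 (SE), and in liver, its main site, it read 12.95 in IRP2 and 12.96 in control reactions. Hfe, the haemochromatosis protein that binds transferrin receptor 1, had -0.06 ± 0.10 (SE), and B2m, the light chain of Hfe, had -0.08 ± 0.18 (SE). The peptidase-like relatives of the family Naalad2 and Naaladl1 had -0.14 ± 0.12 and 0.04 ± 0.10 (SE), and Folh1 lay below the filter. Transferrin itself is read by a probe set assigned to more than 1 gene and is not named here.

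Genes that act on the Tfrc mRNA or on IRP2 were not called either, 0 of 9 tested in limma, with and without the replicate block, and 0 of 9 at an unadjusted p under 0.05. With the block 1.07% of all tested probe sets were called higher and 0.146% lower, so a count of 0 among 9 is near the share of all. Ireb2, which encodes IRP2, had a mean log2 ratio of -0.31 ± 0.18 (SE), and Aco1, which encodes IRP1, -0.10 ± 0.13 (SE). Fbxl5, the ubiquitin ligase subunit that degrades the IRPs, had -0.25 ± 0.18 (SE). Rc3h1 and Rc3h2 (the roquins) and Zc3h12a (regnase-1), which bind stem-loops and promote mRNA decay, had 0.03, -0.18 and -0.09. The AU-element binding proteins Zfp36, Zfp36l1 and Zfp36l2 had 0.15, -0.01 and -0.12.

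Of 7 other mRNAs listed for a textbook IRE, 5 were tested, and 3 were called higher in the mean over tissues, against 0.378% of all tested probe sets. They were Alas2 at 1.52 ± 0.11, Slc11a2, given above, and Fth1, the ferritin heavy chain, at 0.83 ± 0.09 (log2 ratio, SE), which are named here because they were called. The median of the 5 was 0.83. All 5 were called with the replicate block, against 1.07% of all tested probe sets. How they differ from the 1.90 of 1452661_at was not tested.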

How the data were processed

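The deposited values are log2 probe set intensities that the authors made before deposit. Per the series' design text, intensities came from RMA in Bioconductor, or from MAS5 in GCOS followed by quantile normalization. Which of these made these values, and the versions, are not given in the sources used here.

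Of 45101 probe sets, 64 were Affymetrix controls, and the 13 for mouse mRNAs were kept. Probe sets reaching their own array's median on at least 2 of 20 arrays were tested, 30165 in all (66.9%). The fit, in limma 3.58.1 (R 4.3.3), had 1 mean per group for the 10 groups (10 residual degrees of freedom, prior 5.33), and p-values were Benjamini-Hochberg adjusted over all tested probe sets. Arrays give no read depth, and their number limits the precision. Deviations of same-numbered IRP2 and control arrays correlated at 0.923 in brain, 0.676 in duodenum, 0.565 in liver, 0.385 in spleen and 0.251 in bone marrow, so the numbers were taken as pairs, and a second fit used them as a block. Probe set contrasts used exact sign flips over the 10 pairs, each pair flipped on its own whatever its tissue, in Python 3.11.15 with NumPy 2.4.6. The fit was tested on simulated data.

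The members, gene lists and rules were chosen with earlier results of these data known. Named genes were every Tfrc probe set, all measured genes of the receptor and mRNA turnover lists, called genes of the transferrin cycle, the control transcripts, the 5 genes most like Tfrc by each measure of likeness, and the 4 brightest markers of the erythroid and dividing-cell lists. Each gene was read on its brightest probe set with 1 symbol. Alternatives were the block, array median centring, quantile normalization, no filter, a trended spread, each tissue fitted alone, and each array or pair left out. Leaving out the bone marrow arrays, and the block without bone marrow control replicate 1, were added after seeing the data.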

Additional observations from a re-analysis of the deposited data

How the results depend on the processing

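The 5 Tfrc calls in the mean over tissues held under every setting run except the one without bone marrow arrays, where 4 did, and leaving out single arrays gave 5 to 5. The Tfrc counts here include 1422967_a_at and the middle array control, which passed the filter through the IRP2 arrays alone. They are therefore not set against the numbers over all probe sets. Of the 3 sets that passed on control arrays as well, 3 were called in the mean, with and without the replicate block. With the block 3 of them were called in spleen and 2 in bone marrow. The counts called within a tissue moved. With the replicate block the Tfrc count was 5 in spleen and 4 in bone marrow, and the block changed no other count of Tfrc calls. Array median centring gave 1 in liver and 0 in bone marrow, no filter gave 1 in liver and 0 in bone marrow, and quantile normalization gave 2 in bone marrow. A fit of each tissue alone, with fewer arrays to estimate the spread, gave 5 in spleen, 1 in liver, 0 in duodenum, 0 in bone marrow and 0 in brain. Leaving out single arrays gave 0 to 2 in duodenum, 1 to 1 in liver, 1 to 1 in spleen, 0 to 3 in bone marrow and 1 to 2 in brain, and 0 to 0 for the difference of ratios between tissues. The sets whose control level differed between tissues numbered 1 without bone marrow arrays and 1 to 3 without single arrays. Without single pairs the Tfrc 3′ minus 5′ difference lay between 1.13 and 1.31, and 10 to 11 probe set pairs differed. The cause of these moves was otherwise not tested. Over all probe sets, the replicate block moved the number called higher to 86 against 23 in duodenum, 62 against 10 in liver, 90 against 24 in spleen, 116 against 3 in bone marrow, 42 against 18 in brain and 324 against 114 in the mean, and the number whose ratio differed between tissues to 12 against 1. In a fit of each tissue alone these numbers were 196 in spleen, 0 in duodenum, 0 in brain and 0 in bone marrow, and in bone marrow they were 0 with median centring, 15 with quantile normalization and 0 with no filter. The differences that changed sign had not been called: 1422967_a_at minus the 3′ array control was -0.0567 without spleen replicate 1 and up to 0.268 without other single pairs, Gapdh 3′ minus middle lay between -0.0580 and 0.00194 without single pairs (the last without brain replicate 1) and was 0.0232 after quantile normalization, and 1452661_at minus the 3′ array control was 0.0206 without bone marrow arrays.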
